A study of Mus musculus with 50 samples.

Results

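The tripartite motif (TRIM) genes of hippocampal microglia are described here as the genes whose symbol is Trim followed by a digit, without pseudogenes, and with at least 1 CPM (the usual depth-scaled count, relative to the total count of the mouse) in 3 or more mice. Of 68 such symbols among the 53700 genes counted, 48 passed this limit and 20 did not, of which 5 had no count in any mouse. Among the 48 members, 20 had at least 1 CPM in all 50 mice and 7 in fewer than 10 mice. Trim72 and Trim58 reached the limit only through mice given LPS, and Trim55 only through P9 mice.

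All mice were male C57BL/6J mice. From P2 to P9, litters were raised either undisturbed (CTR) or with limited bedding and nesting material, a model of early-life stress (ELS) that fragments maternal care. Microglia were studied at P9 (12 P9-CTR and 13 P9-ELS mice, not injected) and at P200, 3 hours after 1 intraperitoneal injection of PBS (7 CTR-PBS and 6 ELS-PBS mice) or of 1 mg/kg lipopolysaccharide (LPS), the outer wall component of Gram-negative bacteria that activates innate immune cells (7 CTR-LPS and 5 ELS-LPS mice). The cells were sorted as CD45int CD11b+ cells from both hippocampi of each mouse, which gave 1 poly-A RNA library per mouse. Mice are named by the 2 numbers of their label, the first of which was taken as the number of the nest. Myelin was removed from the P200 brains but not from the P9 brains, so that age and this step cannot be told apart.

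TRIM proteins carry a RING domain, 1 or more B-boxes and a coiled coil, and most of them are E3 ligases that attach ubiquitin to other proteins. The end of the protein, such as a PRY-SPRY domain, NHL repeats or a COS box, selects the target. Several members are induced by interferon and tune the sensing of viral RNA and DNA or the signalling from Toll-like receptors to NF-kB, for example Trim30a, which in mice restrains Toll-like receptor signalling through the adaptors Tab2 and Tab3.

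Between 5152838 and 42231258 reads were counted in each mouse (median 19960409). The 8 microglia markers were detected in every group, with a summed level of 33700 to 80900 CPM in single mice. At P200, the 6 neuron markers together had group medians of 5.74 to 9.53 CPM, and the 4 markers of border-associated macrophages reached at most 9.41 CPM in any mouse. Other lists were higher at P200. The 7 oligodendrocyte lineage markers had group medians of 143 to 162 CPM. The 4 endothelial markers had medians of 52 CPM in CTR-PBS, 73.2 in CTR-LPS, 64.5 in ELS-PBS and 63.4 in ELS-LPS mice. The part of this RNA in the results was not tested. A count was found for only 12854 genes in CTR-PBS mouse 1 of nest 1. It was found for 12482 genes in P9-ELS mouse 3 of nest 19 and for 15731 genes in P9-ELS mouse 2 of nest 19. These 3 libraries are named at some results only. They also hold extreme values at which they are not named, such as the 0 CPM of Trim3, Trim9, Trim34a and Trim67 in P9-ELS mouse 3 of nest 19. Only reads with a unique position were counted, so that levels of near-identical neighbours, such as the Trim30, Trim12 and Trim34 genes, can miss reads that fit several of them. In bulk RNA of sorted cells, a change in the number of cells that use a gene and a change in the RNA per cell cannot be told apart.

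Levels between genes were compared per kilobase of exon in the CTR-PBS mice (TMM-normalised CPM per kb, mean ± SD, n = 7). Trim35, a ligase linked to the turnover of Irf7, had the highest level of 28.8 ± 6.26. Trim34a, a member of the interferon-inducible cluster of chromosome 7, followed with 15.07 ± 2.15. The ranges of these neighbours overlapped only through CTR-PBS mouse 1 of nest 1, which had the lowest Trim35. Trim8 (8.77 ± 3.73), which acts in cytokine and NF-kB signalling, Trim30d (8.46 ± 1.54), Trim65 (8.41 ± 1.196), a ligase of the RNA sensor MDA5, and Trim26 (8.203 ± 1.13), a regulator of Irf3, did not differ from each other beyond their spread. Trim55, Trim58 and Trim72 had no count in any CTR-PBS mouse. Levels below are TMM-normalised CPM, which are not divided by gene length.

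Whether the adult immune challenge moved these genes was asked by comparing LPS with PBS within each early-life condition. Genes were called with an adjusted p under 0.05 (edgeR's quasi-likelihood test, Benjamini-Hochberg adjustment over the 16696 genes tested) and a log2 fold change beyond 1 in either direction. In CTR mice 12 of the 48 members (25%) were called, against 9.62% of all genes tested, with 6 higher (all genes 6.02%) and 6 lower (3.6%). In ELS mice 11 members (22.9%) were called, against 7.86%, with 6 higher (4.69%) and 5 lower (3.17%). With the nest number as a block, 4 members (8.33%) were called in CTR mice, near the 7.4% of all genes in that fit. These were Trim30b, Trim30c, Trim65 and Trim72. In ELS mice the same fit called 10 members (20.8%), against 7.27%. In the fit without a block, Trim30a, Trim30b, Trim30c and Trim46 rose in both conditions, and Trim14, Trim47 and Trim65 fell in both. Of these, Trim30a, Trim46, Trim14 and Trim47 were not called in CTR mice with the block. Trim58 and Trim72 make up the other 2 genes called higher, but they reached the level limit only through LPS mice, so that their direction was set by the choice of members. Of the 45 members that reach the limit without the LPS mice, 22.2% were called in CTR mice (9.22% of all such genes) and 20% in ELS mice (7.48%). Trim21, Trim45 and Trim67 were called lower in CTR mice, and Trim36 and Trim59 in ELS mice, but no member had a difference of the LPS response between the conditions that passed the test. The median log2 fold change of the 48 members was 0.06 in CTR and -0.21 in ELS mice, beside 0.00 and -0.04 over all genes tested. Groups did not overlap for 6 of the 48 members in CTR mice, against 7.49% of all genes, and for 7 in ELS mice, against 10%. Both counts include Trim72, whose direction was set by the choice of members. The 8 microglia markers summed to 74900 to 80900 CPM in CTR-PBS and 63200 to 74800 CPM in CTR-LPS mice, and the part of this shift in the results was not tested.

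**Figure D1:**
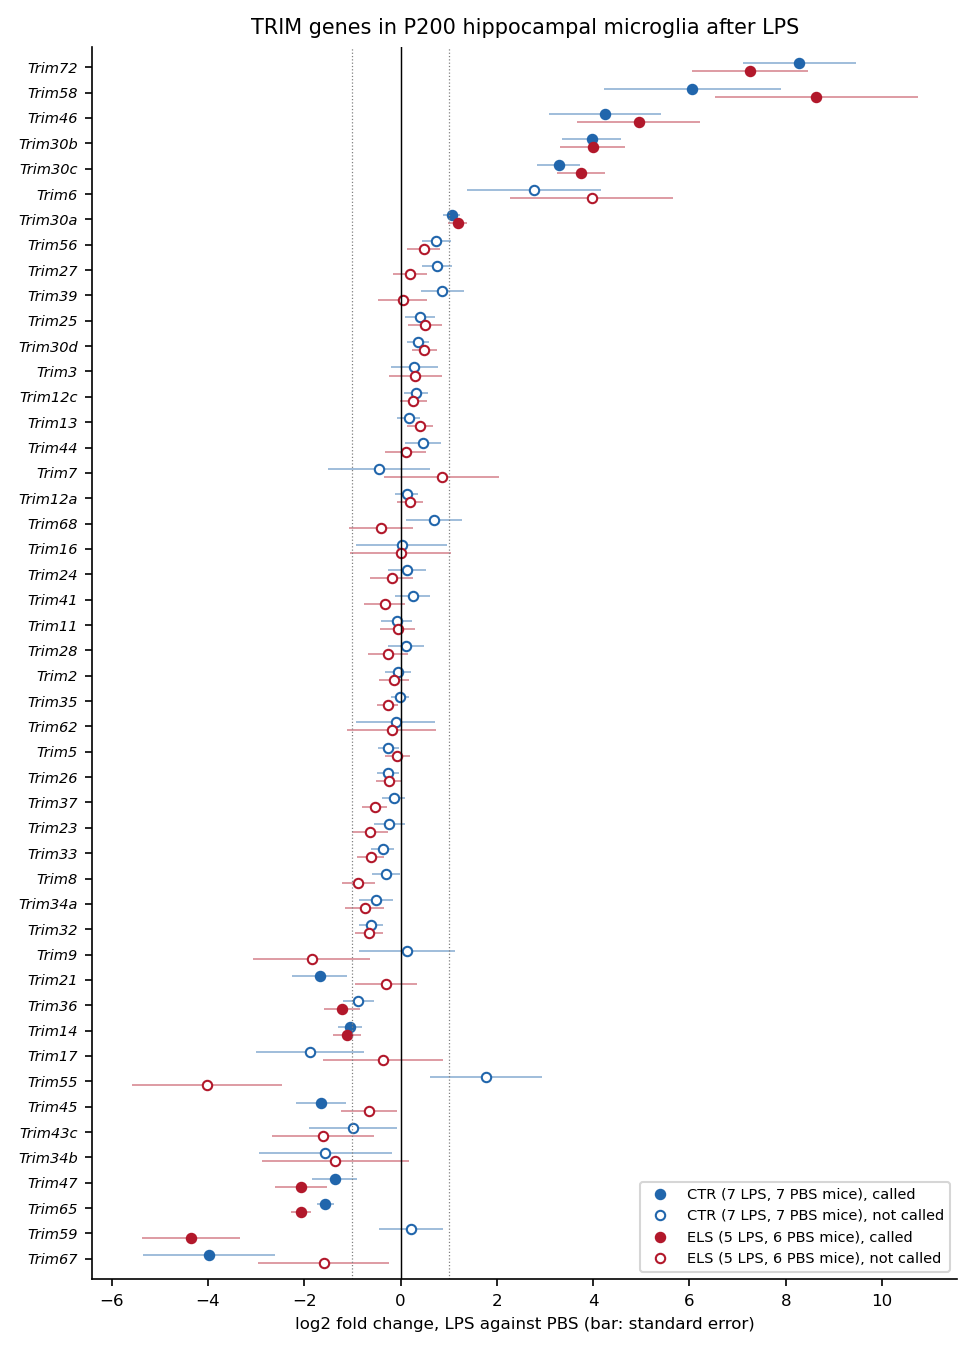
Log2 fold change of LPS against PBS (horizontal axis) for each of the 48 TRIM genes (vertical axis) in CTR (blue) and ELS (red) P200 mice, with the standard error as a bar, filled where called. Trim72, Trim58, Trim46, Trim30b, Trim30c and Trim30a are filled to the right of 0 in both colours and Trim14, Trim47 and Trim65 to the left, while most of the other members lie between the dotted lines at -1 and 1.

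Of the 16 tested interferon and nucleic acid sensing members, 3 rose and 3 fell in CTR mice, while 3 rose and 2 fell in ELS mice. Over all genes tested, 6.02% rose and 3.6% fell in CTR mice, and 4.69% rose and 3.17% fell in ELS mice. These shares are also the background of the LPS counts of the gene lists below. All 3 sensing members that rose, Trim30a, Trim30b and Trim30c, are neighbours on the minus strand of chromosome 7. Trim30b, a close copy of Trim30a, lay at 2.38, 2.79 and 5.67 CPM (lowest, median and highest) in CTR-PBS mice and at 26.5, 48.1 and 63.9 CPM in CTR-LPS mice. Among ELS mice it lay at 1.63, 2.54 and 3.46 CPM after PBS, and the 5 ELS-LPS mice had 12.1, 33.8, 49.2, 54.0 and 57.3 CPM. Every LPS mouse was thus above every PBS mouse in both conditions, with a log2 fold change of 3.97 ± 0.61 (SE, adjusted p = 1.74e-06, edgeR) in CTR and 3.99 ± 0.67 (adjusted p = 1.32e-05) in ELS mice.

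Trim30c showed the same separation. Its lowest, median and highest levels were 1.64, 8.70 and 11.9 CPM in CTR-PBS mice and 27.3, 75.6 and 104 CPM in CTR-LPS mice. In ELS-PBS mice they were 1.61, 5.07 and 11.9 CPM, and the ELS-LPS mice had 30.1, 49.6, 90.4, 95.0 and 140 CPM. The log2 fold change was 3.28 ± 0.45 (adjusted p = 1.08e-07, edgeR) in CTR and 3.75 ± 0.50 (adjusted p = 9.25e-08) in ELS mice, and the groups did not overlap.

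Trim30a, which started from a far higher level, rose by a smaller ratio. It was at 50.1, 60.0 and 70.1 CPM in CTR-PBS mice and at 75.0, 121 and 169 CPM in CTR-LPS mice (log2 fold change 1.06 ± 0.18, adjusted p = 1.04e-05, edgeR). For ELS mice it was at 39.4, 52.24 and 59.9 CPM after PBS and at 69.6, 90.9, 122, 137 and 163 CPM after LPS (1.19 ± 0.20, adjusted p = 1.52e-05). Its groups did not overlap, and without CTR-LPS mouse 2 of nest 1, the highest, the log2 fold change of 0.98 in CTR mice missed the fold limit at an adjusted p of 7.37e-05. CTR-LPS mouse 3 of nest 5 was the lowest of its group in all of Trim30a, Trim30b and Trim30c, and ELS-LPS mouse 2 of nest 11 the lowest of the ELS-LPS mice in all 3.

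**Figure D2:**
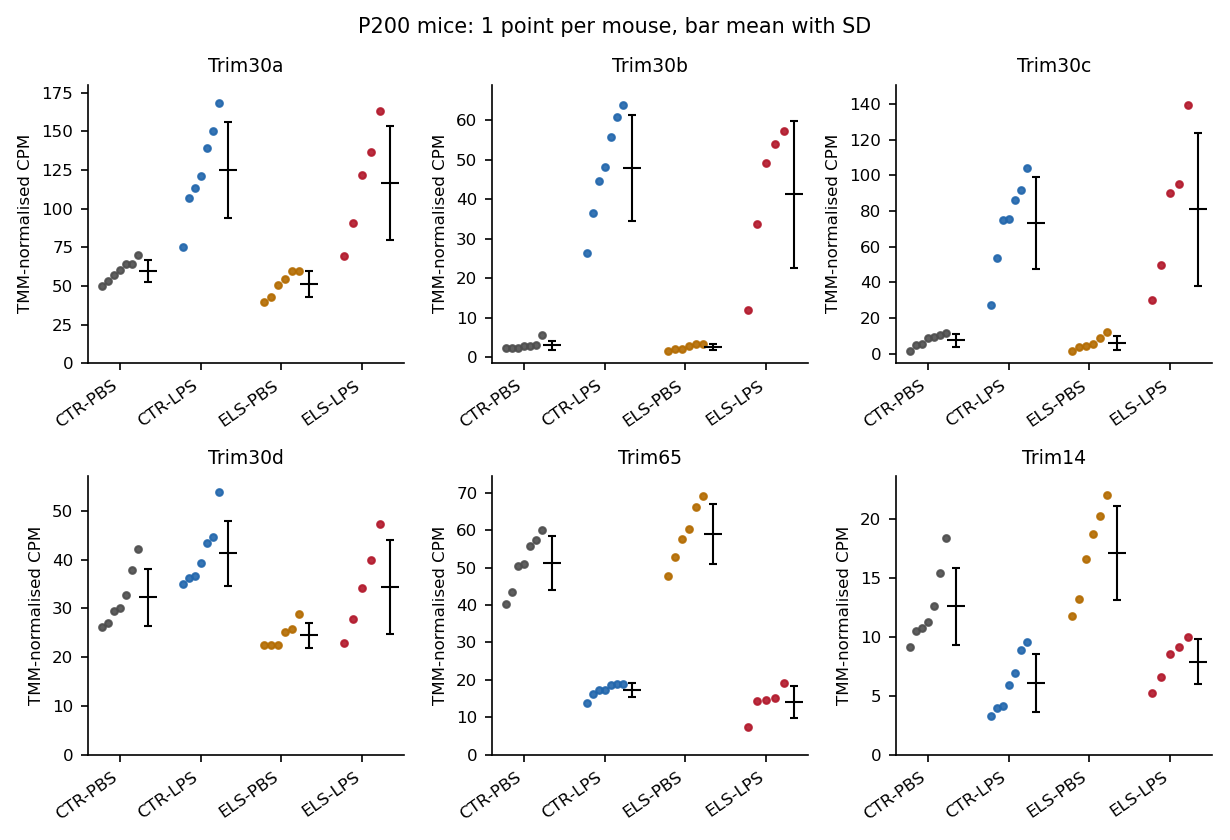
TMM-normalised CPM (vertical axes) of 6 TRIM genes in the 4 groups of P200 mice, with 1 point per mouse ordered by its value and the mean with SD beside each group. The LPS points of Trim30a, Trim30b and Trim30c lie above all PBS points and those of Trim65 below all PBS points in both conditions, while those of Trim30d overlap with the PBS points.

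Trim30d, the fourth of these neighbours, was not called. It lay between 26.3 and 42.1 CPM in CTR-PBS mice and between 34.9 and 53.9 CPM in CTR-LPS mice (log2 fold change 0.36 ± 0.23, adjusted p = 0.351, edgeR), and the groups overlapped. Under ELS it was at 22.4 to 28.9 CPM after PBS and 23.0 to 47.3 CPM after LPS (0.49 ± 0.26, adjusted p = 0.244), again with overlap. Of the 10 members between 103868000 and 104157107 on chromosome 7 (GRCm39), 3 were called higher and none lower in either condition. Trim34a (-0.51 ± 0.36 in CTR, adjusted p = 0.3945, edgeR), Trim5, Trim12a and Trim12c did not pass the test in either condition.

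**Figure D3:**
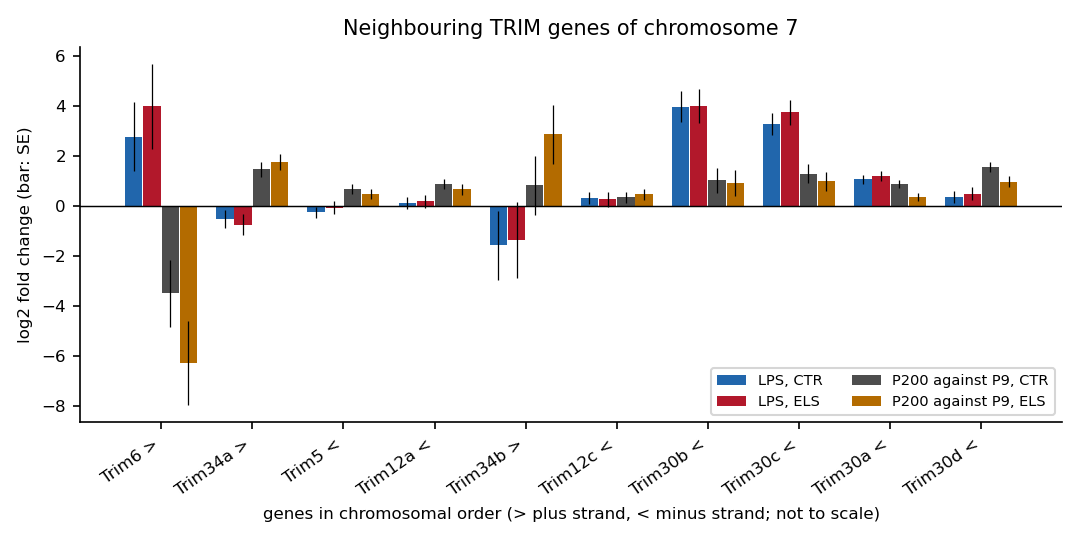
Log2 fold change with its standard error (vertical axis) of the 10 neighbouring TRIM genes of chromosome 7 in chromosomal order, for LPS against PBS and for P200 against P9 in CTR and ELS mice. Tall bars for LPS stand at Trim30b, Trim30c and Trim6, with a smaller one at Trim30a. Trim6 was not called for LPS in either condition (2.77 ± 1.39 in CTR mice, adjusted p = 0.192, edgeR). The bars of Trim6 and Trim34b have wide errors, at CPM levels near 0.

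The promoters of Trim30a, Trim30d and Trim30c are shown because they are similar in sequence while Trim30a and Trim30c were called and Trim30d was not, and those of Trim34a and Trim21 because they hold the same motif in members that did not rise. The RefSeq promoter table (250 bases before to 50 after a start, build GRCm38.p6) held 36 of the 48 members, and each printed sequence was found once, unchanged, in GRCm39, whose coordinates are given. Capitals mark the core of the interferon-stimulated response element (GAAA, any 2 bases, GAAA, on either strand), the DNA site of interferon-activated Stat and Irf factors. Trim30c, which has no such core, is printed without capitals.

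Trim30a (chr7:104114351-104114650, minus strand): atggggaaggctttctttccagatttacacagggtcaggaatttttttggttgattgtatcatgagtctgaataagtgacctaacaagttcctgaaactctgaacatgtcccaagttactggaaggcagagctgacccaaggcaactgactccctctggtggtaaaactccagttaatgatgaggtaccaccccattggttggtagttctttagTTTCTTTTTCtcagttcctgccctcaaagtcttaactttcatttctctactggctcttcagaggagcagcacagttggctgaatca
Trim30d (chr7:104157007-104157306, minus strand): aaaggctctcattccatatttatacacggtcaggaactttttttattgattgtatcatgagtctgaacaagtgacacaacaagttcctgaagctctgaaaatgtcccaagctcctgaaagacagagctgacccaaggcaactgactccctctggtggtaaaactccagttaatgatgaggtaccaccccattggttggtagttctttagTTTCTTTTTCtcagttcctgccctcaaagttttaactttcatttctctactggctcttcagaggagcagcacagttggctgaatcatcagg
Trim30c (chr7:104049936-104050235, minus strand): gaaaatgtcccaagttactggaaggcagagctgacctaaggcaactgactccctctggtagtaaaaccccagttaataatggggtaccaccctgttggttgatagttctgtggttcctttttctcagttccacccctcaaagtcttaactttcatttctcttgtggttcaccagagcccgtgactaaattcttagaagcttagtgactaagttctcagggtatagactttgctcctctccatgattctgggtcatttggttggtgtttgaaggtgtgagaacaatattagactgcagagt
Trim34a (chr7:103893414-103893713, plus strand): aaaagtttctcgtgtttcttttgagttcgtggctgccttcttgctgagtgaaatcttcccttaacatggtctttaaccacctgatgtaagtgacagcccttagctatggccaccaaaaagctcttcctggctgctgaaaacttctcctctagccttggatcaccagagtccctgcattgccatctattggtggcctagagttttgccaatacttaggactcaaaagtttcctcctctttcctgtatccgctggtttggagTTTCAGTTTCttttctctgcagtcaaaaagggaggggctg
Trim21 (chr7:102214640-102214939, minus strand): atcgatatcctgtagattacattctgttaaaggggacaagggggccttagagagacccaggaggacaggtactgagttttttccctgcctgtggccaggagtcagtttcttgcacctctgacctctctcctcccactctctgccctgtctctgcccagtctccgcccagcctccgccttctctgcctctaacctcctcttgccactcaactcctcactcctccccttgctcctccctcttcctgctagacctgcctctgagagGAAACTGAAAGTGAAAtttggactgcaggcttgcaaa

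The Trim30d promoter matched that of Trim30a in 276 of 294 aligned bases (93.9%) and held the same core, at positions -41 to -32 from its start against -36 to -27 in Trim30a. The Trim30c promoter matched in 157 of 176 aligned bases (89.2%), and at the place of the core it carried 1 substitution, T3C, counted from the 5′ end of the core as printed for Trim30a. With this base the letters of the core are not met in Trim30c. In Trim30c this place also lies further before the start than the core of Trim30a, upstream of position -62. In Trim34a the core lay after the start, at positions 10 to 19, and in Trim21 2 overlapping cores covered positions 13 to 28. For Trim30b the table gives a start 11250 bases inside the GENCODE gene, and this window held no core. A second start of Trim30a lies 19075 bases inside its gene, and that window, not printed, held the core at positions 2 to 11. Among the 36 members 9 promoters (25.0%) held the core, those of Trim2, Trim5, Trim12a, Trim12c, Trim21, Trim26, Trim30a, Trim30d and Trim34a, against 3.73% of 11284 tested genes with a promoter and 3.99% of all 27025. Trim5, Trim12a, Trim12c, Trim30a, Trim30d and Trim34a are neighbours on chromosome 7, and the promoters of Trim30a and Trim30d are near copies. The 9 matches are therefore not independent. Of the 6 members called higher in both conditions only Trim30a was among the 9. The GAS motif TTCNNNGAA, another Stat site, was found in 3 of 36 members (8.33%, against 8.18% of tested genes), namely Trim46, Trim45 and Trim30c, where it lay at positions -62 to -54, and the kB motif (GGGA, any base, TTTCC) in 0 of 36 (against 0.558%), counted on both strands. These are matches of letters, and no binding was measured.

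Trim65, which activates the RNA sensor MDA5, fell in every LPS mouse below every PBS mouse. Its levels were 40.3, 51.05 and 59.9 CPM in CTR-PBS and 13.8, 17.26 and 19.0 CPM in CTR-LPS mice (log2 fold change -1.57 ± 0.18, adjusted p = 1.41e-09, edgeR). They were 47.7, 58.9 and 69.2 CPM in ELS-PBS mice and 7.30, 14.2, 14.6, 15.3 and 19.11 CPM in ELS-LPS mice (-2.06 ± 0.21, adjusted p = 6.86e-11). This was the smallest adjusted p of any member in both comparisons, and no fit that left out a mouse ended the call.

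Trim47 lies next to Trim65 on chromosome 11, and 225 of its exon bases are also exon of Trim65 on the same strand. It was at 4.63, 7.01 and 9.92 CPM in CTR-PBS and at 1.46, 2.27 and 6.51 CPM in CTR-LPS mice (-1.37 ± 0.46, adjusted p = 0.0349, edgeR). In ELS mice it was at 3.11, 7.49 and 13.0 CPM after PBS and at 0, 0.410, 1.81, 2.60 and 4.70 CPM after LPS (-2.07 ± 0.54, adjusted p = 0.00637). The groups overlapped through CTR-LPS mouse 3 of nest 5, ELS-LPS mouse 2 of nest 11 and ELS-PBS mouse 2 of nest 17. The call in CTR mice was lost without CTR-PBS mouse 1 of nest 1 or mouse 1 of nest 15 or any of CTR-LPS mice 2 and 3 of nest 1, 2 and 3 of nest 8, 2 of nest 15, and 3 of nest 18, with an adjusted p for Trim47 of 0.0509 to 0.0767.

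Trim14, an adaptor of the mitochondrial antiviral protein Mavs, was at 9.11, 11.3 and 18.34 CPM in CTR-PBS mice and at 3.26, 5.89 and 9.59 CPM in CTR-LPS mice (-1.05 ± 0.25, adjusted p = 0.00213, edgeR), and only the highest CTR-LPS mouse reached the range of the CTR-PBS mice. ELS-PBS mice had 11.8, 17.7 and 22.0 CPM and the ELS-LPS mice 5.27, 6.58, 8.53, 9.15 and 9.95 CPM (-1.11 ± 0.29, adjusted p = 0.00577), without overlap. The fold of Trim14 is close to the limit. It came to between -0.94 and -0.99 without any of CTR-LPS mice 2 and 3 of nest 1, and 2 of nest 8 or CTR-PBS mice 2 of nest 5 and 2 of nest 18, and to -0.998 without ELS-LPS mouse 3 of nest 17, which ended the call each time. An opposite-strand gene, Nans, covers 22.0% of the exon bases of Trim14, and since the strand setting of the counting is not given in the sources used here, their reads cannot be told apart.

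Trim21, the cytosolic antibody receptor, was called lower in CTR mice (-1.68 ± 0.57, adjusted p = 0.0383, edgeR), and this rested on CTR-PBS mouse 1 of nest 1, the library with few detected genes. That mouse had 18.17 CPM, the other CTR-PBS mice 1.42 to 3.89 CPM and the CTR-LPS mice 1.035 to 2.04 CPM. Without it the log2 fold change of Trim21 was -0.81 with an adjusted p of 0.373, and the call was also lost without any of CTR-LPS mice 2 and 3 of nest 1, 3 of nest 5, 2 and 3 of nest 8, and 2 of nest 15 (adjusted p = 0.0518 to 0.0696). In ELS mice Trim21 was at 1.495, 2.60 and 3.67 CPM after PBS and at 0.742, 1.033, 2.34, 2.97 and 3.40 CPM after LPS, and 3 of the 5 LPS mice lay within the range of the PBS mice.

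The NF-kB and TNF pathway members had 1 of 9 tested genes called in each condition. Trim45 fell in CTR mice from 1.42, 7.24 and 15.0 CPM to 0.315, 2.26 and 4.34 CPM (-1.66 ± 0.52, adjusted p = 0.0210, edgeR). Among ELS mice it was at 0.965, 2.81 and 4.77 CPM after PBS and 0.878, 0.939, 1.15, 1.62 and 4.14 CPM after LPS, and was not called. The groups overlapped in both conditions, and the call in CTR mice was lost without CTR-PBS mouse 1 of nest 1 (-1.38, adjusted p = 0.0656) or CTR-LPS mouse 2 of nest 1 (-1.49, adjusted p = 0.0516).

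Trim59, a membrane-anchored member, was called lower in ELS mice (-4.35 ± 1.03, adjusted p = 0.00201, edgeR) at levels below 4 CPM. ELS-PBS mice had 0, 0.385 and 3.26 CPM and the ELS-LPS mice 0, 0, 0, 0.0549 and 0.124 CPM. In CTR mice it was at 0 to 1.29 CPM after PBS and at 0 to 0.799 CPM after LPS. Trim8 was at 41.5, 56.4 and 64.0 CPM in ELS-PBS mice and at 15.4, 26.5, 31.3, 32.8 and 40.3 CPM in ELS-LPS mice. These groups did not overlap, but the log2 fold change of -0.88 ± 0.34 had an adjusted p of 0.0812 (edgeR). Trim27, a ligase of several NF-kB and Toll-like receptor components, was likewise not called in CTR mice (0.75 ± 0.31, adjusted p = 0.103), although its 23.1 to 42.9 CPM after LPS lay above the 4.48 to 22.7 CPM after PBS.

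The microtubule-binding COS-box members had 5 of 7 genes tested, with 1 called higher and 1 lower in each condition. Trim46, which organises microtubules at the start of the axon in neurons, was at 0 to 0.229 CPM in CTR-PBS mice and at 0, 0.890 and 2.14 CPM in CTR-LPS mice (4.24 ± 1.16, adjusted p = 0.00775, edgeR). ELS-PBS mice had 0 to 0.254 CPM and the ELS-LPS mice 0, 0.866, 1.26, 3.03 and 3.32 CPM (4.94 ± 1.28, adjusted p = 0.00531). In both conditions 1 LPS mouse had no count of Trim46, so that the groups overlapped. The summed neuron markers were at 2.49, 5.74 and 11.9 CPM in CTR-PBS and at a median of 9.53 CPM in CTR-LPS mice, and their part in this result was not tested.

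Trim36, a centrosomal member, fell in ELS mice from 24.0, 34.7 and 56.2 CPM to 6.55, 13.7, 15.0, 15.5 and 28.7 CPM (-1.22 ± 0.37, adjusted p = 0.0224, edgeR). In CTR mice it was at 11.8, 23.3 and 37.5 CPM after PBS and at 7.73, 13.9 and 22.9 CPM after LPS (-0.88 ± 0.32, adjusted p = 0.0587). It did not pass the test in CTR mice, where it was called lower without CTR-PBS mouse 1 of nest 1 (-1.002, adjusted p = 0.0300) or CTR-LPS mouse 3 of nest 8 (-1.04, adjusted p = 0.0303). The call in ELS mice was lost without ELS-PBS mouse 1 of nest 2 or any of ELS-LPS mice 2 of nest 2, 2 of nest 11, and 1 of nest 20, with an adjusted p of up to 0.0822.

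Trim67, a brain-enriched relative of Trim9, was called lower in CTR mice (-3.98 ± 1.36, adjusted p = 0.0391, edgeR) but had counts in only 2 of 7 CTR-PBS mice, 0.285 CPM in mouse 1 of nest 15 and 2.61 CPM in mouse 1 of nest 18. Without CTR-PBS mouse 1 of nest 18 the log2 fold change of Trim67 was -0.68 with an adjusted p of 0.849, and the call was also lost without any of CTR-LPS mice 2 and 3 of nest 1, 3 of nest 5, 3 of nest 8, 2 of nest 15, and 3 of nest 18 (adjusted p = 0.0630 to 0.0711). Without ELS-PBS mouse 1 of nest 11, the value in ELS mice turned from -1.59 to 2.97, and neither was called.

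Trim72 and Trim58 had no count in any PBS mouse of either condition. Trim72 (MG53), which is known for membrane repair in muscle, had counts in all 12 LPS mice, with 0.0666, 1.43 and 2.91 CPM in CTR-LPS mice and 0.371, 0.723, 0.738, 1.05 and 1.54 CPM in ELS-LPS mice. Against the floor of 3 counts over the PBS group, this was at least 87.5-fold higher in CTR and at least 44.7-fold higher in ELS mice, which is a description, since these mice brought the gene over the level limit. An opposite-strand gene, Gm15533, shares 20.6% of the exon bases of Trim72, and their reads cannot be told apart.

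Trim58, which acts on dynein while red blood cells mature, had counts in 4 of 7 CTR-LPS mice, with 0, 0.364 and 1.36 CPM as the lowest, median and highest, and in ELS-LPS mice it had 0, 0, 1.55, 2.25 and 7.73 CPM. Against the same floor, and again as a description, it was at least 20.5-fold higher in CTR and at least 105-fold higher in ELS mice. Without the highest mouse of each LPS group, mouse 3 of nest 8 and mouse 1 of nest 20, these bounds were 12.4-fold and 46.7-fold. CTR-LPS mouse 3 of nest 8, with the highest level of its group, also had the highest sum of 5 erythroid markers (a list added after the data were seen), 29.6 CPM against 0.281 to 0.471 CPM in the other CTR-LPS mice. ELS-LPS mouse 1 of nest 20, with 7.73 CPM of Trim58, had an erythroid sum of 0.433 CPM, the lowest of its group. The part of red blood cells in the Trim58 result was not tested.

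None of the 3 tested TIF1 chromatin corepressors (Trim24, Trim28 and Trim33) and none of the 3 tested NHL-repeat members (Trim2, Trim3 and Trim32) was called in either condition. Of 4 TRIM family genes with another symbol, Mefv (pyrin, an inflammasome sensor) rose in both conditions, from 0 to 0.117 CPM in the PBS mice to between 0.369 and 7.74 CPM in the LPS mice. Mid1 was called in CTR mice (log2 fold change 1.93 ± 0.51, adjusted p = 0.00541, edgeR) and missed the threshold in ELS mice (1.55 ± 0.56, adjusted p = 0.0606).

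Of 14 tested partners and substrates of TRIM proteins, 3 rose in CTR and 1 in ELS mice, and none fell. Traf6, the ubiquitin ligase of Toll-like receptor signalling, rose in both (edgeR, 1.14 ± 0.18 with an adjusted p of 3.33e-06 in CTR mice and 1.12 ± 0.20 with 5.24e-05 in ELS mice). Tab2 and Tab3, the targets of Trim30a, were not called (Tab2 -0.21 ± 0.19 in CTR and -0.35 ± 0.22 in ELS mice). Of 19 tested type I interferon-stimulated genes, 3 rose in CTR and 7 in ELS mice, and none fell, led by the chemokine Cxcl10 (7.89 ± 0.73 in CTR and 9.19 ± 0.84 in ELS mice). The median log2 fold change of these interferon-stimulated genes was 0.59 in CTR and 1.14 in ELS mice. For no gene of this list did the difference of the LPS response between the conditions pass the test (smallest adjusted p = 0.2515, edgeR).

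Microglial maturation was examined by comparing P200-PBS with P9 mice. In CTR mice 13 of the 48 members (27.1%) were called, against 26.4% of all genes tested, with 5 higher (all genes 7.98%) and 8 lower (18.5%) at P200. In ELS mice 12 members (25%) were called, against 26.2%, with 5 higher (8.68%) and 7 lower (17.5%). These shares are close to the background. Of the called members Trim6, Trim9, Trim55 and Trim67, and Trim34b in ELS mice, would not reach the level limit without the P9 mice. Of the 40 members that would, 22.5% were called in CTR mice (20.5% of all such genes) and 17.5% in ELS mice (20.7%). Trim34a and Trim65 were higher at P200 in both conditions, and Trim6, Trim9, Trim37, Trim46, Trim55, Trim59 and Trim67 were lower in both. P9 and P200 libraries also differed in their marker levels. The summed markers of proliferating cells, which can be microglia themselves, were at 324 to 1250 CPM at P9 and 2.49 to 12.9 CPM in P200-PBS mice. Neuron markers were at 39.2 to 186 CPM against 2.49 to 11.9 CPM. Markers of border-associated macrophages were at 464 to 914 CPM against 1.95 to 9.41 CPM. Whether these markers came from microglia or from other cells was not measured, and their part in the age differences was not tested.

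Of the 16 tested interferon and sensing members, 5 rose with age and 1 fell in CTR mice, while 3 rose and 1 fell in ELS mice. Over all genes tested, 7.98% rose and 18.5% fell in CTR mice, and 8.68% rose and 17.5% fell in ELS mice. These shares are also the background of the age counts of the gene lists below. The 5 include Trim21, whose rise rested on CTR-PBS mouse 1 of nest 1. The PRY-SPRY gene Trim34a was at 6.46, 15.3 and 19.25 CPM in P9-CTR mice and at 30.0, 42.4 and 45.1 CPM in CTR-PBS mice (1.46 ± 0.31, adjusted p = 1.26e-04, edgeR). For ELS mice it was at 0, 13.8 and 22.4 CPM at P9 and at 34.1, 42.7 and 62.8 CPM at P200 (1.74 ± 0.31, adjusted p = 1.03e-05). Every P200 mouse was above every P9 mouse in both conditions. An opposite-strand gene, Gm47248, shares 23.1% of the exon bases of Trim34a.

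Trim65 was higher in every P200-PBS mouse than in every P9 mouse, in a comparison that shares its P200-PBS mice with the LPS comparison. It lay at 17.05, 26.2 and 37.4 CPM in P9-CTR and at 40.3, 51.05 and 59.9 CPM in CTR-PBS mice (1.00 ± 0.15, adjusted p = 4.00e-07, edgeR). Under ELS it lay at 9.47, 23.0 and 30.1 CPM at P9 and at 47.7, 58.9 and 69.2 CPM at P200 (1.36 ± 0.16, adjusted p = 3.85e-10). In CTR mice the fold of Trim65 was at the limit and came to 0.96 to 0.98 without any of CTR-PBS mice 1 of nest 1, and 1 and 2 of nest 18, which ended the call.

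Trim30d rose with age in CTR mice, from 5.198 to 18.25 CPM at P9 to 26.3, 30.0 and 42.1 CPM without overlap (1.56 ± 0.20, adjusted p = 1.08e-08, edgeR). In ELS mice it was at 6.22, 10.9 and 30.5 CPM at P9 and at 22.4, 23.8 and 28.9 CPM at P200, with an adjusted p of 1.55e-04 but a log2 fold change of 0.97 ± 0.21 under the limit. The P9-ELS value of 30.5 CPM came from mouse 2 of nest 19, a library with few detected genes, and without the 3 such libraries the log2 fold change of Trim30d in ELS mice was 1.14.

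Trim30c was called in CTR mice (1.297 ± 0.37, adjusted p = 0.00324, edgeR), from 1.33, 2.59 and 6.16 CPM at P9 to 1.64, 8.70 and 11.9 CPM at P200, with overlap. Among ELS mice its log2 fold change of 0.98 ± 0.38 (adjusted p = 0.0312) missed the fold limit, and it passed without any of ELS-PBS mice 1 of nest 2, 1 of nest 4, 1 of nest 11, and 2 of nest 20, at 1.01 to 1.18. The rise of Trim21 in CTR mice (1.51 ± 0.49, adjusted p = 0.00969) rested on CTR-PBS mouse 1 of nest 1, since the value without it was 0.63 with an adjusted p of 0.288. For none of Trim21, Trim30c and Trim30d did the difference between CTR and ELS mice pass the test.

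The sensing member that was lower at P200 was Trim6, which helps to make the unanchored ubiquitin chains of the interferon response. Trim6 would not reach the level limit without the P9 mice, so that its values are a description. It was at 0, 0.439 and 1.71 CPM in P9-CTR mice and at up to 0.214 CPM in CTR-PBS mice (-3.47 ± 1.34, adjusted p = 0.0306, edgeR). The call was lost without any of CTR-PBS mice 1 of nest 1, 1 and 2 of nest 5, 1 of nest 8, and 1 of nest 18 (adjusted p = 0.0542 to 0.0584). In ELS mice Trim6 was at 0, 0.313 and 7.65 CPM at P9 and at up to 0.0282 CPM at P200 (-6.27 ± 1.68, adjusted p = 0.00209), and the 7.65 CPM came from P9-ELS mouse 2 of nest 19. Without the 3 libraries with few detected genes the value of Trim6 in ELS mice was -5.03 (adjusted p = 0.00496). Trim34b was called higher in ELS mice (2.86 ± 1.17, adjusted p = 0.0439) from at most 0.690 CPM at P9 to at most 2.82 CPM at P200, with overlap, and this call was lost without the 3 libraries with few detected genes (adjusted p = 0.0603).

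**Figure D4:**
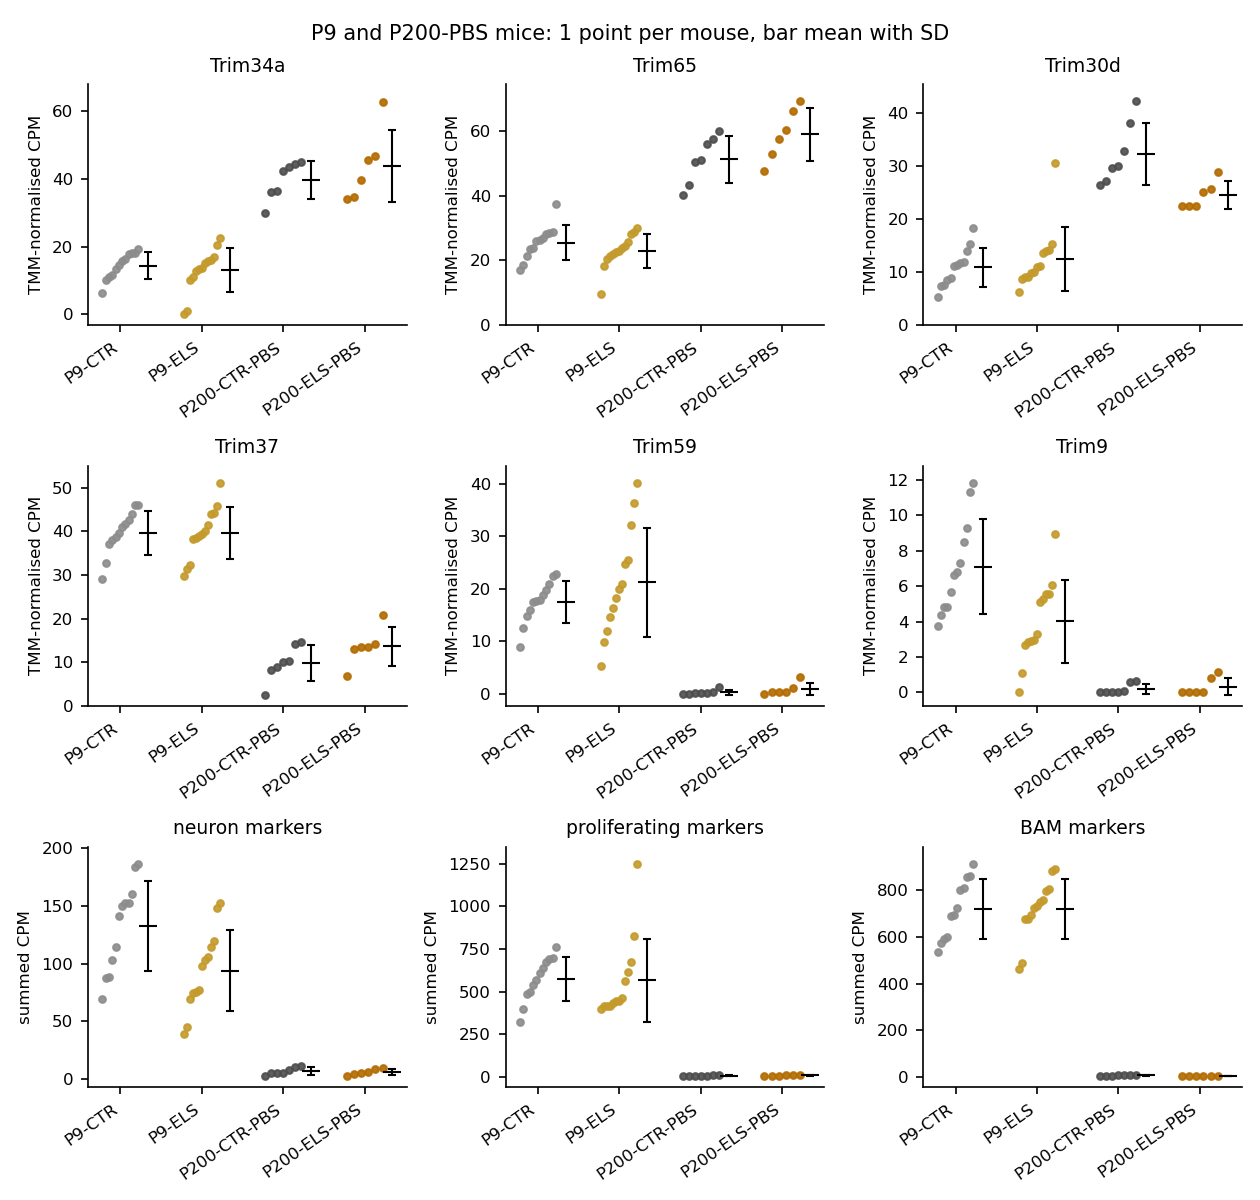
TMM-normalised CPM of 6 TRIM genes and summed levels of the neuron, proliferating cell and border-associated macrophage markers (vertical axes) in P9 and P200-PBS mice, with 1 point per mouse and the mean with SD beside each group. Trim34a and Trim65 separate upwards and Trim37 and Trim59 downwards with age in both conditions, and all 3 marker sums are high at P9 and near 0 at P200.

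Among members with a median above 10 CPM in P9-CTR and in P9-ELS mice, the largest falls with age were those of Trim59 and Trim37. Trim59, known from the growth of tumour cells, went from 8.95, 17.8 and 22.9 CPM in P9-CTR to 0, 0.0709 and 1.29 CPM in CTR-PBS mice (-5.85 ± 0.66, adjusted p = 2.34e-10, edgeR). For ELS mice it went from 5.38, 20.0 and 40.2 CPM to 0, 0.385 and 3.26 CPM (-4.58 ± 0.64, adjusted p = 6.10e-08). Neither condition showed any overlap, and the 3 markers of proliferating cells fell over the same ages, a change whose part in this result was not tested.

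Trim37, a centrosomal ligase that limits the assembly of centrosome proteins, went from 29.2, 40.3 and 46.1 CPM to 2.34, 10.1 and 14.6 CPM in CTR mice (-2.02 ± 0.22, adjusted p = 1.15e-10, edgeR). Under ELS it went from a lowest level of 29.9 CPM and a median of 39.3 CPM at P9 to 6.77, 13.4 and 20.7 CPM (lowest, median and highest) at P200 (-1.54 ± 0.23, adjusted p = 2.00e-07). The P9 and P200 mice did not overlap in either condition. It was at 5.596 to 14.4 CPM in the LPS mice and was not called for LPS.

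Of the 5 tested COS-box members, 4 were lower at P200 and none higher in both conditions, namely Trim9, Trim46, Trim55 and Trim67. Over all genes tested, 18.5% were called lower in CTR and 17.5% in ELS mice. Of the 4, Trim9, Trim55 and Trim67 would not reach the level limit without the P9 mice. Their direction was thus set by the choice of members, and their values here and below are a description. Trim9, a ligase that guides axon branching, was at 3.72, 6.72 and 11.8 CPM in P9-CTR and at 0, 0 and 0.636 CPM in CTR-PBS mice (-5.27 ± 1.00, adjusted p = 2.26e-05, edgeR). In ELS mice it was at 0, 3.28 and 8.92 CPM at P9 and at 0, 0.0240 and 1.13 CPM at P200 (-3.58 ± 0.95, adjusted p = 0.00195), with overlap. Trim9, Trim46 and Trim67 are known from neurons, and the 6 neuron markers fell with them, by a median log2 fold change of -4.99 in CTR and -5.28 in ELS mice. The part of the neuron RNA in these results was not tested.

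Trim55 (MURF2), known from the sarcomere of muscle, had counts in all P9-CTR mice at 1.16, 2.45 and 4.39 CPM and in no CTR-PBS mouse, at least 112-fold lower against the floor of 3 counts over the group. Among ELS mice it was at 0, 1.74 and 4.24 CPM at P9 and had counts in 2 of 6 mice at P200, 0.141 and 0.356 CPM. Since only P9 mice brought Trim55 over the level limit, these values are a description. Trim46 was at 0.219, 1.11 and 2.24 CPM in P9-CTR mice against at most 0.229 CPM in CTR-PBS mice (-4.39 ± 1.13, adjusted p = 0.00128, edgeR) and fell in ELS mice as well (-4.14 ± 1.16, adjusted p = 0.00322). Its P9 levels overlapped with those after LPS at P200.

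Trim67 was at 0.395, 2.55 and 5.34 CPM in P9-CTR mice, and in CTR-PBS mice only mouse 1 of nest 15 and mouse 1 of nest 18 had counts (-2.68 ± 1.02, adjusted p = 0.0290, edgeR). In P9-ELS mice it was at 0, 2.35 and 6.70 CPM (-2.97 ± 1.11, adjusted p = 0.0270). The call of Trim67 was lost without any of CTR-PBS mice 1 of nest 1, 1 and 2 of nest 5, 1 of nest 8, and 2 of nest 18 (adjusted p = 0.0506 to 0.0559) and without any of ELS-PBS mice 1 of nest 2, 1 of nest 4, 1 and 2 of nest 17, and 2 of nest 20 (adjusted p = 0.0582 to 0.0609). In the other direction, Trim67 came to -5.98 (adjusted p = 1.33e-04) without CTR-PBS mouse 1 of nest 18 and to -7.53 (adjusted p = 5.49e-05) without ELS-PBS mouse 1 of nest 11, the highest of their groups.

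Among the TIF1 corepressors Trim28 (KAP1), which silences retroelements through zinc-finger proteins, fell in CTR mice from 33.4, 45.5 and 58.17 CPM to 0, 21.0 and 32.2 CPM without overlap (-1.26 ± 0.34, adjusted p = 0.00239, edgeR). For ELS mice it was at 21.9 CPM at the lowest and 39.7 CPM at the median at P9 and at 16.4, 26.9 and 49.8 CPM at P200 (-0.46 ± 0.35, adjusted p = 0.302), with overlap. The 0 came from CTR-PBS mouse 1 of nest 1, without which Trim28 was at -1.04 (adjusted p = 6.91e-05), and 67.8% of the exon bases of Trim28 are also exon of Chmp2a on the opposite strand. Of the NHL-repeat members Trim3, a synaptic ligase, rose in ELS mice from 0, 1.70 and 7.49 CPM to 4.58, 7.07 and 9.72 CPM (1.76 ± 0.43, adjusted p = 8.75e-04). In CTR mice its value was 0.98 ± 0.43 (adjusted p = 0.0565), and it was called there without CTR-PBS mouse 1 of nest 1 (1.09, adjusted p = 0.0398). Of the 9 NF-kB and TNF pathway members, Trim59 fell in both conditions and Trim39, which stabilises regulators of cell death, rose in ELS mice from 1.032, 4.25 and 7.83 CPM to 7.67, 10.8 and 14.0 CPM (1.23 ± 0.40, adjusted p = 0.0111).

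The 19 interferon-stimulated genes were also compared with age. In CTR mice 4 rose and none fell, for example Usp18, which removes the ubiquitin-like protein Isg15 (1.97 ± 0.31, adjusted p = 7.13e-07, edgeR). In ELS mice none rose and 4 fell, for example Ifitm3, which blocks virus entry (-1.47 ± 0.37, adjusted p = 0.00107). No gene of the list was called in both conditions, but Usp18 missed only the fold limit in ELS mice (0.9995 ± 0.32, adjusted p = 0.00918), and no difference between the conditions passed the test for any gene of the list (Ifitm3 -1.64 ± 0.48, adjusted p = 0.258).

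The lasting effect of early-life stress was examined by comparing ELS with CTR mice at P9, after PBS and after LPS. No member was called in any of the 3 comparisons (edgeR's quasi-likelihood test), where 0%, 0.156% and 0% of all genes tested were called. At an unadjusted p under 0.05 there were 3, 5 and 1 of the 48 members, against 5.47%, 9.71% and 4.78% of all genes. DESeq2 called Trim27 after PBS and no other member in these comparisons.

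Trim27 had the smallest p after PBS. The CTR-PBS mice were at 4.48, 19.0 and 22.7 CPM and the ELS-PBS mice at 15.09, 38.3 and 67.4 CPM (log2 fold change 1.14 ± 0.33, adjusted p = 0.111, edgeR). Of the 6 ELS-PBS mice, 5 were above all CTR-PBS mice and mouse 2 of nest 17 was not, and without it the log2 fold change of Trim27 was 1.31 with an adjusted p of 0.0472. Without CTR-PBS mouse 1 of nest 1, the lowest, it was 0.97 with an adjusted p of 0.230. At P9 the levels of Trim27 were 11.0, 26.7 and 43.6 CPM in CTR and 14.1, 24.2 and 44.8 CPM in ELS mice, with overlap.

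Trim35 was the only member whose PBS groups did not overlap, as was true of 0.323% of all genes. It was at 113, 220 and 235 CPM in CTR-PBS and at 243, 261 and 290 CPM in ELS-PBS mice, a log2 fold change of 0.41 ± 0.20 with an adjusted p of 0.491 (edgeR). Without CTR-PBS mouse 1 of nest 1, the lowest, it was 0.31 with an adjusted p of 0.907. Between 186 and 267 CPM in ELS-LPS and between 157 and 222 CPM in CTR-LPS mice, the groups overlapped again.

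Trim45 was at 1.42, 7.24 and 15.0 CPM in CTR-PBS and at 0.965, 2.81 and 4.77 CPM in ELS-PBS mice (-1.40 ± 0.54, adjusted p = 0.299, edgeR), with overlap. The highest was CTR-PBS mouse 1 of nest 1, a library with few detected genes. Trim55 had counts only in ELS-PBS mouse 1 of nest 2 and mouse 1 of nest 4, and Trim59 was at 0 to 1.29 CPM in CTR-PBS and 0 to 3.26 CPM in ELS-PBS mice, with adjusted p of 0.152 and 0.359. After LPS, Trim59 (-3.02 ± 1.09, adjusted p = 0.843) had the smallest p, at levels under 1 CPM in both groups.

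**Figure D5:**
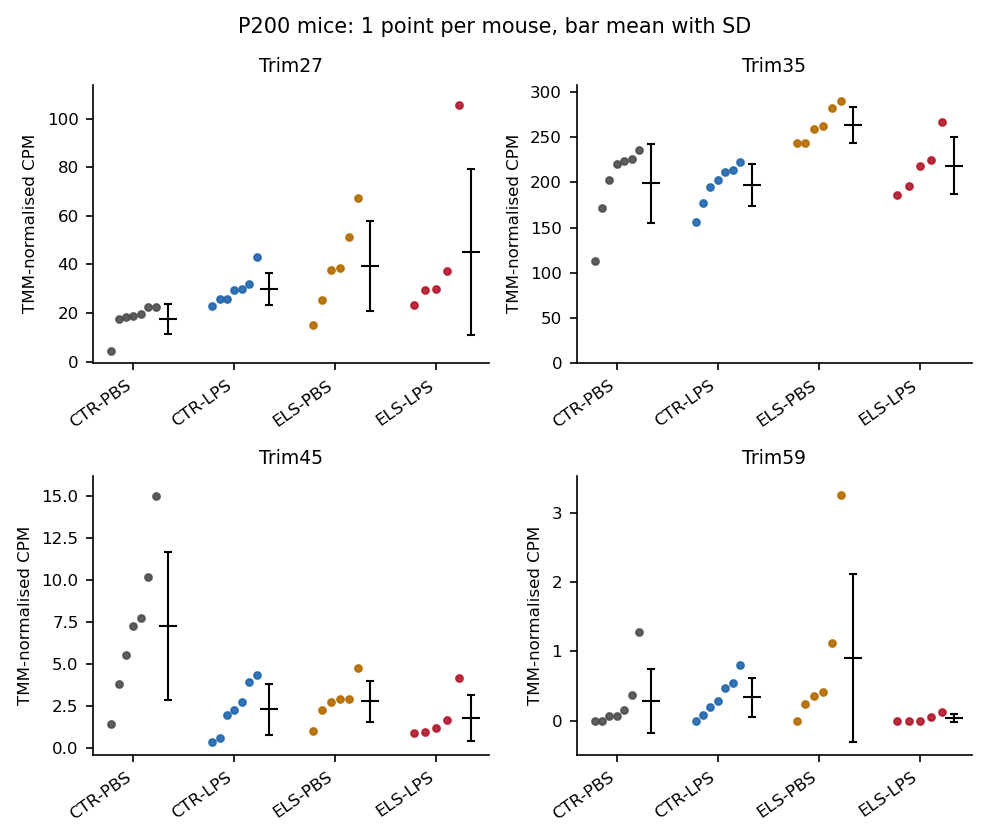
TMM-normalised CPM (vertical axes) of Trim27, Trim35, Trim45 and Trim59 in the 4 groups of P200 mice, with 1 point per mouse ordered by its value and the mean with SD beside each group. The ELS-PBS points of Trim35 lie above all CTR-PBS points and 5 of the 6 of Trim27 do, while the CTR-LPS and ELS-LPS points overlap for all 4 genes.

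At P9 the 3 members of smallest p were Trim58, Trim30a and Trim3. Trim30a was at 26.7, 33.0 and 35.5 CPM in P9-CTR and at 29.3, 38.4 and 88.8 CPM in P9-ELS mice (0.32 ± 0.13, adjusted p = 0.897, edgeR), where the highest was mouse 2 of nest 19. Without the 3 libraries with few detected genes the value of Trim30a was 0.14 (adjusted p = 0.991). Trim3 was at 1.098, 3.17 and 7.88 CPM in CTR and at 0, 1.70 and 7.49 CPM in ELS mice (-0.83 ± 0.37, adjusted p = 0.908), and Trim58 had counts in 1 P9-ELS mouse alone.

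No member passed the test of a different LPS response (0% of all genes called) or a different change with age (0.0299%) between ELS and CTR mice in edgeR's quasi-likelihood test or in DESeq2. At an unadjusted p under 0.05 there were 2 and 5 members, against 5.87% and 10.3% of all genes. The smallest p for the LPS response was that of Trim59 (difference of log2 fold changes -4.57 ± 1.26, adjusted p = 0.281, edgeR), and for age that of Trim55 (4.42 ± 1.35, adjusted p = 0.267). In the LPS response the difference was 0.46 ± 0.62 for Trim30c, 0.02 ± 0.81 for Trim30b and 0.12 ± 0.27 for Trim30a, and none was called. A difference larger than its error can also miss the test, as that of Trim59 did.

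Trim26, Trim25 and Trim12a were well expressed and were not called in any comparison. Trim26 had group medians of 42.8 to 61.0 CPM and no absolute log2 fold change above 0.26 between the groups compared. Trim25, the ligase that activates the RNA sensor RIG-I, had group medians of 19.8 to 30.0 CPM and a largest change of -0.63 with age in CTR mice (adjusted p = 0.0660, edgeR). Trim12a, in the chromosome 7 cluster, had medians of 19.8 and 24.7 CPM in P9-CTR and P9-ELS mice and of 33.1 to 38.3 CPM in the P200 groups. It was higher at P200 by 0.88 ± 0.21 in CTR (adjusted p = 5.12e-04, edgeR) and 0.67 ± 0.21 in ELS mice (adjusted p = 0.00945), below the fold limit. Trim38, another interferon-inducible member, had at most 2 counts in any mouse and was below the level limit.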

How the data were processed

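Hippocampal CD45int CD11b+ cells of 50 mice were profiled by poly-A RNA sequencing. The authors aligned trimmed reads to GRCm39 with STAR and deposited raw counts per gene of uniquely mapped reads within exons (per the submitters' processing notes, bcl2fastq 2.20, cutadapt 2.10 and HTSeq 0.11.0). The strand setting and the annotation release are not given in the sources used here. From the counts, genes with at least 1 CPM in 3 or more mice (16696) were fitted with edgeR 4.0.16 in R 4.3.3 (TMM, quasi-likelihood test over 6 group means, Benjamini-Hochberg adjustment). The call needed an adjusted p below 0.05 plus a log2 fold change beyond 1 in either direction. Errors beside fold changes are approximate standard errors. They were derived as the absolute log2 fold change divided by the square root of the F statistic of the test. The TRIM genes and all gene lists were chosen with earlier results of these data known. Named members were those called in CTR or ELS mice (up to 8 per direction), the 3 of smallest p where none was called, the 5 highest per exon length, and Trim21, Trim27 and Trim55. Others (Trim5, Trim8, Trim12a, Trim12c, Trim25, Trim26 and Trim38) were chosen after their values were seen.

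Exon lengths came from GENCODE gene models of GRCm39 and promoters from a RefSeq table. DESeq2 1.42.0, other filters and scalings, a block for the number before the point in the mouse label, sums per such number and fits without each P200 mouse were tried. The number was taken as a nest number, which the labels do not state. Mice of a litter share a mother, so that p-values measure the spread between mice and not between litters. No mice of a group had identical counts, and the mean chi-square per gene between mice of a group was at least 14.9. The fit was tested on simulated counts. Intervals of counting error are not given, since replicate spread exceeds them.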

Additional observations from a re-analysis of the deposited data

Results flagged for a closer look

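In the 97 groups of P200 mice tested over the 27 named TRIM genes, 15 had a highest or lowest mouse whose distance to the nearest other mouse was beyond Dixon's 95% limit, where chance gives about 1 in 20. CTR-PBS mouse 1 of nest 1, with few detected genes, held 7 of them. It was high for Trim21 (18.17 CPM, next 3.893) and low for Trim27 (4.478, next 17.73), Trim28 (0, next 16.89), Trim35 (112.9, next 172), Trim37 (2.341, next 8.136), Trim39 (0, next 5.372) and Trim8 (4.122, next 37.25 CPM).

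CTR-LPS mouse 3 of nest 5, the lowest of its group for Trim30a, Trim30b and Trim30c, was high for Trim47 (6.509 CPM, next 2.623) and Trim6 (2.074, next 0.2436 CPM). CTR-PBS mouse 1 of nest 8 was high for Trim30b (5.673 CPM, next 3.019), yet below every LPS mouse. CTR-LPS mouse 2 of nest 1 was low for Trim72 (0.06661 CPM, next 1.305) and CTR-LPS mouse 3 of nest 18 for Trim39 (12.39 CPM, next 14.8). Trim67 had a single high mouse in each of CTR-LPS (0.1125 CPM, mouse 2 of nest 8), CTR-PBS (2.61 CPM, mouse 1 of nest 18) and ELS-PBS mice (1.913 CPM, mouse 1 of nest 11). No TRIM gene differed between ELS and CTR mice in its LPS response or its change with age by the test of the difference.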

How the results depend on the processing

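The number of called TRIM genes stayed within 1.5 times of the reported count in 178 of 185 values. With the edgeR likelihood-ratio test 2 genes (Trim27 and Trim55) were called for ELS against CTR after PBS and 1 (Trim59) for the difference in LPS response, where the quasi-likelihood test called 0. DESeq2 called 1 (Trim27) after PBS. A log2 fold change limit of 0.1 gave 22 genes for age in ELS mice in place of 12. Leaving out 1 P200 mouse gave 6 to 12 called genes for LPS in CTR mice (6 without CTR-LPS mouse 2 of nest 1), 10 to 11 for LPS in ELS, 10 to 14 for age in either condition and 0 to 1 for ELS after PBS (1 without ELS-PBS mouse 2 of nest 17). Over all genes tested, P200 mice that share a number before the point had correlations of -0.041 to 0.084 in 10 numbers. The number was not used to pair them. These correlations over all genes cannot exclude a shared effect on single genes, and the P9 mice were not checked. With that number as a replicate block, 4 genes (8.33%) were called for LPS in CTR mice in place of 12, namely Trim30b, Trim30c, Trim65 and Trim72. This share is near the 7.4% of all genes called in that fit, and Trim72 reached the level limit only through LPS mice. In ELS mice 10 (20.8%, all genes 7.27%) were called in place of 11. With counts summed per number, chosen after seeing the data, 8, 11, 11 and 10 genes were called for LPS in CTR and ELS and age in CTR and ELS mice. Without the 3 libraries with few detected genes these were 12, 12, 13 and 15.

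Of 1975 values for named genes 18 changed sign, none of them in a called gene. Trim35 for LPS in CTR mice went from -0.01 to 0.0062 with DESeq2 size factors, 0.1269 with the block, 0.0943 with sums per number and up to 0.0349 without 1 mouse (0.0098, 0.0121, 0.0159, 0.0189 and 0.0307 without others), and for age in CTR mice to 0.0246 without the 3 libraries and 0.0249 without CTR-PBS mouse 1 of nest 1. Trim21 went to 0.4524 for the age difference without the 3 libraries and to 0.1597 for ELS at P9 with sums per number. Trim27 for LPS in ELS mice went to -0.0135 with the block and -0.3882 without ELS-LPS mouse 1 of nest 20. Trim59 for LPS in CTR mice went to -0.0703 without CTR-LPS mouse 2 of nest 1, and Trim67 for LPS in ELS mice to 2.9698 without ELS-PBS mouse 1 of nest 11. The cause was not tested. Depth limits Trim6, Trim34b, Trim46, Trim55, Trim58, Trim59, Trim67 and Trim72 at P200, where single counts decide their presence.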

Other observations

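Of the 20 TRIM symbols below the level limit, 15 had counts in at least 1 mouse, at most 22 in any of them (Trim66, in 11 mice). Trim69 reached 1.22 CPM in a single mouse. The muscle gene Trim63 had counts in 9 mice, up to 0.714 CPM.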
